A study of Mus musculus with 44 samples.

Results

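Putting wild-type Smarcc2 back into cortical neurons that lack it was compared with an empty vector, in neurons left unstimulated. The comparison rests on 4 of the 44 libraries of the series, 2 with the add-back and 2 with the vector, each a list of open-chromatin peaks. Cortical neurons were taken from mouse embryos at E16.5 and kept for 18 days in vitro (DIV18). Both groups carried a guide RNA against Smarcc2, so the knockout is shared and only the added construct differs: Smarcc2 knockout with wild-type Smarcc2 added back, or Smarcc2 knockout with vector. Both were silenced overnight with 1 µM tetrodotoxin, which blocks sodium channels, and 100 µM D-AP5, which blocks NMDA receptors. Levels are set beside neurons with a non-targeting guide (2 libraries), beside the same knockout with the Smarcc2 S586A or S586E mutant added back (2 libraries each), and beside the same 5 genotypes after 30 min in 50 mM KCl (2 libraries each). The cortex of each embryo counted as a replicate per the labels, but no label ties a library to its embryo. P-values of regions therefore measure the spread between libraries of the same group, pooled over all 20 libraries at DIV18. This spread may be partly technical.

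Smarcc2, also called BAF170, is a core subunit of the BAF complex, a chromatin remodeler that uses ATP to move or evict nucleosomes. It forms a scaffold with its paralog Smarcc1, on which the ATPase (Smarca4 or Smarca2) and the other subunits assemble. BAF complexes are known for keeping enhancers open, and in the developing cortex they control the passage from progenitor to neuron. ATAC-seq reads DNA that a transposase can reach, and a summit is the point of highest signal within a peak.

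The Smarcc2 gene itself (chr10:128458000-128492000 on mm10) was left out of every comparison below, because added Smarcc2 DNA gives reads there. It served as a check of the add-back label. The best summit in this window had a −log10 p of 1622 and 1120 in the add-back libraries and of 223 and 170 in the vector libraries, and 135 and 221 in the non-targeting ones. The window held 42 and 43 summits in the add-back libraries, 22 and 20 in the vector libraries and 19 and 19 in the non-targeting ones. The add-back libraries therefore separated from the others as labelled. The best −log10 p of the vector and non-targeting libraries overlapped, so this window does not check the knockout. The depolarized vector libraries held 39 and 36 summits there, close to the 46 and 45 of the depolarized add-back libraries, but their best −log10 p was 259 and 267 against 1739 and 1647.

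The add-back lists were longer than the vector lists. They held 235380 and 236904 intervals against 198612 and 215071, and covered 97.1 and 98.6 Mb against 84.7 and 87.7 Mb. The groups did not overlap, and of the non-targeting lists, at 233653 and 266049 intervals, 1 was just below the add-back lists and 1 above. An exact two-sided permutation test of 2 against 2 libraries cannot go below 0.333, the value it gave for both measures. The background level that the fold enrichments imply was 2.05 and 2.41 reads per base with the add-back and 1.99 and 1.69 with the vector, and its part in the length of the lists was not tested. Read depth was otherwise unknown. For this reason regions were compared by rank in lists of equal length.

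The rank score used below is the log2 of 233647, the common list length, over the rank of the best summit in a window of 500 bp. A score 1 higher means a rank nearer to the top by a factor of 2, and 0 means that no summit of the list lay in the window. Over the 97810 regions tested, the add-back raised 4368 regions (4.47%) and lowered 1287 (1.32%) at an adjusted p under 0.05, out of 23352 with an unadjusted p under 0.05. Of the calls, 77.2% were rises. The windows were placed by the top summits of all 20 libraries at DIV18, most of them non-targeting or add-back. The part of this choice in the share of rises was not tested. The median change was 1.36 among the rises and −1.30 among the falls, against 0.06 over all regions. In 4367 of the rises and in all 1287 falls, the 2 add-back libraries lay wholly on 1 side of the 2 vector libraries. Over all regions 29551 lay wholly higher and 22731 wholly lower. Most called regions were present in both groups at different ranks: both vector libraries held 3503 of the rises, 1 held 594 and neither held 271, while both add-back libraries held 1041 of the falls, 1 held 193 and neither held 53. The share of rises among calls fell to 62.1% when whole intervals were ranked in place of summits, to 66.8% when interval number entered the fit as a covariate and to 67.6% with lists of 75000 summits, and rose to 89.0% when only the 2 groups were fitted. Each call rests on few libraries: leaving out vector replicate 2 left 673 rises and 136 falls, and the other 3 left-out libraries gave 1195 to 1621 rises and 274 to 310 falls.

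At the regions that rose, the vector libraries stood apart from every other genotype. Their median score was 1.22 and 1.09 in the 2 vector libraries, 2.68 and 2.62 with wild-type Smarcc2, 2.48 and 2.53 in non-targeting neurons, 2.40 and 2.49 with S586A and 2.28 and 2.30 with S586E. At the regions that fell the order was turned: 2.57 and 2.56 in the vector libraries and 1.18 and 1.16 with wild-type Smarcc2, with 1.67 and 1.63 in non-targeting neurons. There the wild-type add-back libraries lay below all others, and the non-targeting and mutant libraries lay between. Non-targeting neurons scored above the vector at 96.5% of the rises and at 1.09% of the falls, against 48.2% of the regions not called. S586A did so at 99.3% of the rises and 1.17% of the falls, and S586E at 98.9% and 2.72%. The regions were called on the wild-type add-back and vector libraries, so the places of these 2 groups at the ends are partly set by that choice. Comparisons of the non-targeting and mutant libraries with the vector share the vector libraries with the calls. All of these are therefore a description with no test.

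**Figure D1:**
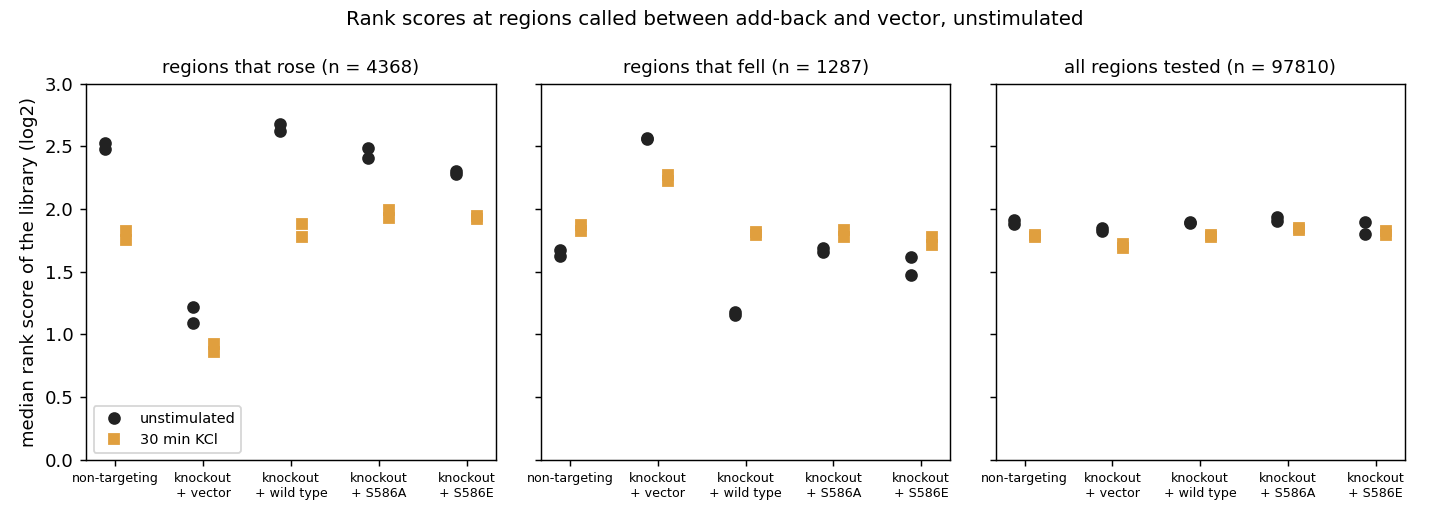
Median rank score of each library (log2, y axis) at the 4368 regions that rose, the 1287 that fell and all 97810 tested, with 1 point per library, circles unstimulated and squares after 30 min KCl, for 5 genotypes along the x axis. In the left panel only the vector libraries are low, at 1.22 and 1.09 unstimulated, and in the right panel the genotypes nearly coincide.

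The depolarized libraries are separate ones and give a second view of the same contrast. Of the regions that rose unstimulated, 4184 (95.8%) also had a higher score in the depolarized add-back than in the depolarized vector libraries, and 892 were called there too. Of those that fell, 1136 (88.3%) were again lower and 35 were called. The same sign was seen at 70.1% of the regions not called. With KCl the background was 2.06% rises and 0.194% falls, so that 20.4% of the unstimulated rises and 2.72% of the falls were called again in the same direction. The median change with KCl was 0.83 at the rises and −0.43 at the falls. All 5 genotypes scored lower with KCl at the regions that rose, the add-back libraries at 1.88 and 1.78 and the vector libraries at 0.93 and 0.86.

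Rises were rare at start sites and most frequent far from genes, while falls differed less with position. The promoter table holds no start sites on chromosome 18, so the other 18 autosomes are counted here. Of 19321 regions within 1 kb of a transcription start site, 120 rose (0.621%) and 274 fell (1.42%), against 4.46% and 1.33% over all positions, and their median change was −0.18. Inside genes, away from both ends, 2104 of 39241 regions rose (5.36%) and 460 fell (1.17%), with a median of 0.19. Farther than 100 kb from any protein-coding gene, 581 of 6997 rose (8.30%) and 57 fell (0.815%), with a median of 0.36. More start-site regions fell than rose in this fit, but not with KCl (41 fell and 52 rose), without vector replicate 2 (27 fell and 39 rose) or with only the 2 groups fitted (29 fell and 30 rose). The share of rises was lowest at start sites also in each of 4 equal classes of mean score. In the highest class, 0.494% of start-site regions and 14.3% of regions over 100 kb from genes rose, and in the lowest 0.980% and 5.51%. Level still varied within a class, from 2.79 to 13.9 at start sites in the highest. With KCl, 0.269% of start-site regions and 4.54% of the farthest regions rose. With whole intervals ranked, the medians were −0.15 at start sites and 0.25 over 100 kb away. Ranks in lists of equal length are relative, so regions that move up push others down. The part of this in the lower start-site scores was not tested. The share of start sites among the 30000 best regions of a library comes from these same rank scores and is no separate support. It was 35.4% ± 0.450 (SD, n = 2) with the add-back and 39.6% ± 0.775 (SD, n = 2) with vector, and 34.2% on average in non-targeting libraries. The groups did not overlap, with the exact permutation p at its floor of 0.333.

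**Figure D2:**
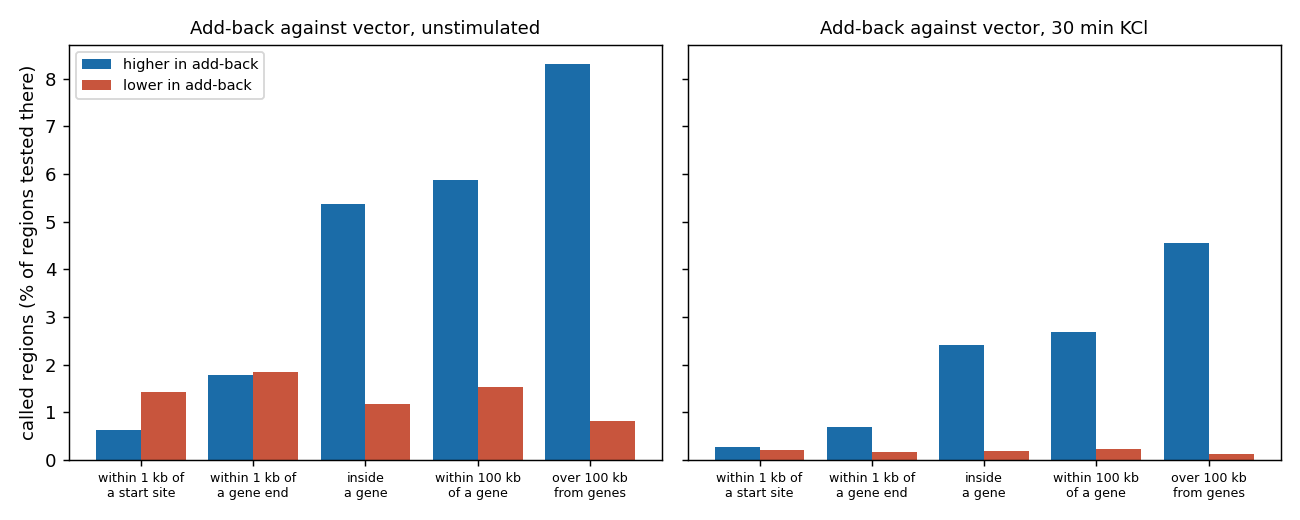
Share of the tested regions of each position class (x axis) that were called (y axis, %), higher in the add-back (blue) or lower (red), unstimulated on the left and after 30 min KCl on the right. Unstimulated, rises grow from 0.621% at start sites to 8.30% at regions over 100 kb from genes, while falls stay between 0.815% and 1.84%.

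Promoters wholly covered by a called region, with the same call for whole intervals, are shown next, to let the start sites that rose be read beside those that fell. They are the 3 with the largest change in each direction, a rule chosen after the values were seen. The sequences are from RefSeq (GRCm38.p6, the mm10 assembly), 250 bases before to 50 after the start, 5′ to 3′ on the gene's strand. Capitals mark every match, on either strand, to the 11 motifs searched. These were AP-1 (TGANTCA), the cAMP response element CRE (TGACGTCA), the NeuroD E-box (CAGATG), the Sp1 GC box (GGGCGG), the Egr motif (GCGGGGGCG), which can overlap the GC box, the CCAAT box (CCAAT), ETS (CCGGAAG), the TATA box (TATAAA), an RFX site (GTTGCC), and the NRF1 and YY1 motifs, given by name only. Emp1 lies on the plus strand at chr6:135362681-135362980, Pgd on the minus strand at chr4:149166656-149166955 and Gm9222 on the plus strand at chr12:17881623-17881922, and all 3 rose. Gstm6 lies on the minus strand at chr3:107943685-107943984, Tmem59l on the minus strand at chr8:70487299-70487598 and Map2k4 on the minus strand at chr11:65745807-65746106, and all 3 fell.
Emp1: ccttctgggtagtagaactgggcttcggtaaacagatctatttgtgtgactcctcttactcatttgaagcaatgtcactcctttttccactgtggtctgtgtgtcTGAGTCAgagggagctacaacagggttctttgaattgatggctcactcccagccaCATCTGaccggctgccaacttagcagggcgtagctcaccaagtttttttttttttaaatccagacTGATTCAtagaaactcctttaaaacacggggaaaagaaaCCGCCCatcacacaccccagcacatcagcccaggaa
Pgd: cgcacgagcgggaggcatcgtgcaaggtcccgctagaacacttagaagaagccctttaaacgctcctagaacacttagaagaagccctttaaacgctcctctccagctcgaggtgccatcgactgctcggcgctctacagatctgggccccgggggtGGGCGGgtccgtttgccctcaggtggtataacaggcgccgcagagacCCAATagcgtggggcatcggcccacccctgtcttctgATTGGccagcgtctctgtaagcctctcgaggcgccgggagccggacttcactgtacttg
Gm9222: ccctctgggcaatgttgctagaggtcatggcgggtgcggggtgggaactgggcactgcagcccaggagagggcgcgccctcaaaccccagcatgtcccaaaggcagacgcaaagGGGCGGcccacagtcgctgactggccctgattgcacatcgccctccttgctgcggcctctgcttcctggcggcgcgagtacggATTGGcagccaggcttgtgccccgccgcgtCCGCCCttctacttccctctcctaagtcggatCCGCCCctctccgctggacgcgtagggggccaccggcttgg
Gstm6: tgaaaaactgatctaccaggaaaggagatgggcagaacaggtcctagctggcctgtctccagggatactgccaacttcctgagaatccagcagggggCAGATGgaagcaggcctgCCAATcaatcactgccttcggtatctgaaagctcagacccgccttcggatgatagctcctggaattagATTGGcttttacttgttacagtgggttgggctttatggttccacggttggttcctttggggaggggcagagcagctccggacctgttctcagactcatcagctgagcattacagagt
Tmem59l: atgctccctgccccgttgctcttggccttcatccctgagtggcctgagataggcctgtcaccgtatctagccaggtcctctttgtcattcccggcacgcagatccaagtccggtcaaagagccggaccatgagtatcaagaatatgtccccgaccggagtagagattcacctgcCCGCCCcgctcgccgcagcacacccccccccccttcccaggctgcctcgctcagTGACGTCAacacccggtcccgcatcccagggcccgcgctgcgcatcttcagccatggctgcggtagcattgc
Map2k4: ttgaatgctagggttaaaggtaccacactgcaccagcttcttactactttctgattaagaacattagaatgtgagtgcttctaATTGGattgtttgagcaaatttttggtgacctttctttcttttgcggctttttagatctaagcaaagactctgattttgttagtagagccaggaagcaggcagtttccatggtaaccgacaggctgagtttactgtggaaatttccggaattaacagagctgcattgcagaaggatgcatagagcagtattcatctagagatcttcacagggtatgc

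Emp1, which encodes an epithelial membrane protein, scored 2.12 and 1.82 with vector, 3.75 and 4.56 with the add-back and 3.95 and 4.11 in non-targeting neurons. It rose by 2.18 (SE 0.32, adjusted p 0.00114), and by 1.25 with KCl (adjusted p 0.0406). Pgd, an enzyme of the pentose phosphate pathway, rose by 1.45 from 6.95 and 7.39 to 8.54 and 8.70, and its change of 0.32 with KCl was not called (adjusted p 0.575). Gm9222, a predicted gene, rose by 1.35 from 5.08 and 4.92 to 6.16 and 6.54, and its change of 0.70 with KCl was not called (adjusted p 0.141). Of these promoters Emp1 holds AP-1 matches, and Pgd and Gm9222 hold none.

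Gstm6, a glutathione transferase gene, fell by 1.62 on the log2 scale, from 2.68 and 3.23 to 1.30 and 1.36, with 0.94 and 0.65 in non-targeting neurons. Tmem59l, a brain-enriched membrane protein gene whose promoter holds a CRE, fell by 1.61 from 3.71 and 3.39 to 1.94 and 1.94. Map2k4, a MAP kinase kinase gene, fell by 1.51 from 2.92 and 2.56 to 0.99 and 1.46, with 1.67 and 2.13 in non-targeting neurons. None of these 3 falls was called with KCl.

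Across all promoters that a tested region covered by at least 150 bp, 1 promoter per region, 10375 were searched, of which 67 lay in a region that rose and 105 in one that fell. AP-1 was found in 20.9% of the promoters that rose, 4.76% of those that fell and 5.44% of all. The NeuroD E-box was found in 32.8%, 16.2% and 12.04%, and the Sp1 GC box in 35.8%, 49.5% and 64.7%. The NRF1 motif was found in 1.49%, 6.67% and 9.66%, and the ETS motif in 4.48%, 7.62% and 16.3%. CRE was at 2.99%, 4.76% and 3.32%. The promoters that rose held a median of 6 CpG dinucleotides, against 17 in those that fell and 21 in all. CpG number moves with several of these motifs, and its part in the shares was not tested. A match is a run of letters and not a bound site, and the shares are a description with no test.

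The regions with the smallest adjusted p among those held by all 4 libraries were chosen after the values were seen. There were 12, of which 11 rose, and 10 were called also with whole intervals and 10 also with KCl. All 12 stayed called with any 1 of the 4 libraries left out. A region inside Ptgs1, which encodes the prostaglandin synthase COX-1 (chr2:36222340-36222839), scored 0.36 and 0.70 with vector, 3.26 and 3.33 with the add-back and 3.82 and 3.65 in non-targeting neurons. It rose by 2.77 (SE 0.27, adjusted p 8.85e-06) unstimulated and by 2.49 with KCl. The vector libraries were far below all others, and the add-back libraries lay just below the non-targeting ones.

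A region whose nearest gene is Panx1, a channel-forming pannexin (chr9:14965398-14965897, 39888 bp from the gene), scored 1.28 and 1.18 with vector and 3.94 and 4.01 with the add-back. It rose by 2.74 (SE 0.27, adjusted p 8.85e-06), and by 3.00 with KCl. Inside Prom2, a prominin gene (chr2:127537460-127537959), the scores were 2.46 and 2.69 against 5.16 and 5.19, a rise of 2.60. Both regions were called in all 8 other settings that kept these windows. A region 67954 bp from Cartpt, the gene of the CART neuropeptide (chr13:99830030-99830529), was open in all libraries and scored 3.73 and 4.00 with vector, 5.90 and 5.78 with the add-back and 5.67 and 5.80 in non-targeting neurons. It rose by 1.98 (SE 0.23, adjusted p 7.26e-05), to the level of the non-targeting libraries. A region 64961 bp from Sall3, a zinc-finger transcription factor gene, rose by 1.98, a region inside Ccdc148 by 2.46 and a region 74465 bp from 4930444P10Rik by 2.73. The region at the end of Brf1, a subunit of the RNA polymerase III factor TFIIIB, went from 2.12 and 2.05 to 4.72 and 4.86. There the non-targeting libraries, at 2.01 and 2.26, lay with the vector, the change with KCl was 0.05 and that of whole intervals −0.085. Regions with no protein-coding gene within 100 kb, chr14:71728447-71728946 and chr1:57529240-57529739, rose by 2.54 and 2.21.

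**Figure D3:**
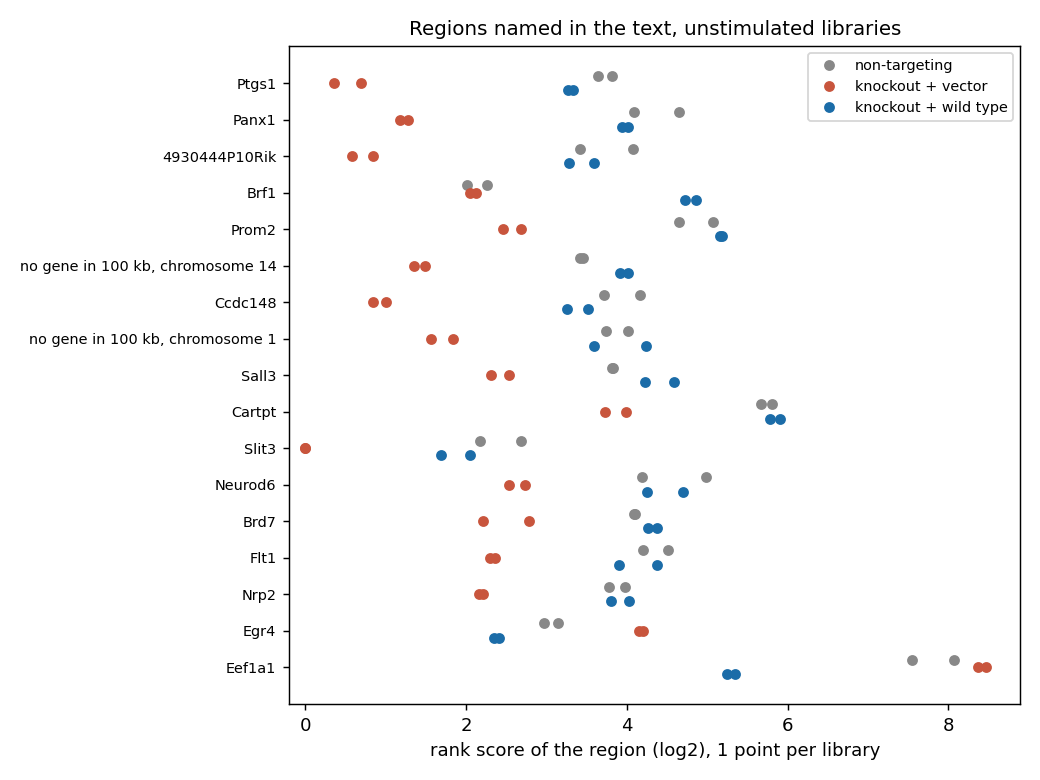
Rank score (log2, x axis) of 17 called regions, labelled by their nearest gene, with 1 point per library for non-targeting (grey), knockout with vector (red) and knockout with wild-type Smarcc2 (blue). The vector points lie left of the blue ones in 15 regions and right of them at Egr4 and Eef1a1.

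Eef1a1 was the 1 fall among the 12 and had the smallest adjusted p of all regions. Eef1a1 encodes the translation elongation factor eEF1A1. A region 716 bp downstream of its start site (chr9:78480759-78481258) scored 8.37 and 8.47 with vector, 8.07 and 7.54 in non-targeting neurons and 5.35 and 5.24 with the add-back. The fall was −3.13 (SE 0.26, adjusted p 5.86e-07), and −2.55 with KCl. The vector and non-targeting libraries were high, and the mutant add-back libraries were low with the wild type, at 5.47 and 5.85 for S586A and 5.03 and 5.61 for S586E. The neighbouring region, centred at −165 bp from the start, scored 7.63 and 7.60 with vector and 7.63 and 7.60 with the add-back. With whole intervals ranked the change was −0.81 and was not called (adjusted p 0.148). Eef1a1 has processed copies elsewhere in the genome, and their part in its reads was not tested.

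Ranked by size of change alone, most of the largest rises and falls lay at gene ends and were not called when whole intervals were ranked. Of the 10 largest rises whose groups did not overlap, among them Cactin, Bnip3l, Aco1, Phf3, Wdr46, Rtn1, Zbtb18, Tbc1d12 and Adamts17, 7 lay at gene ends, 5 had no summit in either vector library, 2 were called with whole intervals and 1 with KCl. Of the 10 largest falls, at Zhx1, Sgsm1, Garem1, Spaca6, Eef1a1, H2-Ke6, Trim9, Ier5, Cdk4 and Tbc1d9b, 7 lay at gene ends, 6 had no summit in either add-back library, none was called with whole intervals and 1 was called with KCl. At Cactin a window 904 bp upstream of its start site went from 0 and 0 with vector to 4.83 and 4.51, while the stronger window next to it scored 12.22 and 11.37 with vector and 11.98 and 10.85 with the add-back and was not called. Adamts17, a secreted metalloprotease gene, was among the rises called with whole intervals. There (chr7:66934162-66934661) the vector libraries scored 1.15 and 0 and the add-back libraries 3.35 and 3.43.

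The longest run of called regions was a run of falls on chromosome 2, from 157487304 to 157567673, found by joining called regions of 1 direction that lay at most 25 kb apart. It spans 80.4 kb and holds Nnat, the imprinted neuronatin gene, and Blcap, in whose intron Nnat lies, and the other genes nearest to its regions are Gm14279 and Src, the gene of a tyrosine kinase. Of its 28 tested regions 16 fell and none rose, while none of the 30 tested regions in the 150 kb on either side was called. A fall within 25 kb of the run would have been joined to it, so the lack of falls next to it is set by the rule. Most of the 30 lay before the run on the chromosome. Those after it changed by −0.94, −0.20, −0.93 and 0.88. No other run held more than 5 calls. The median score of the 28 regions was 2.62 and 2.19 with vector, 1.24 and 1.10 with the add-back and 1.49 and 1.03 in non-targeting neurons. The vector libraries were the highest of the 10 unstimulated ones, and with KCl again scored 1.88 and 1.97 against 1.27 and 1.31. With KCl, 25 of the 28 were lower in the add-back and 2 were called, and with whole intervals 7 fell.

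Within the run the change was not limited to 1 gene. A region within 1 kb of the end of Nnat (chr2:157562731-157563230) scored 6.59 and 5.36 with vector, 4.55 and 3.90 with the add-back and 4.23 and 3.42 in non-targeting neurons, a fall of −1.75 (SE 0.36, adjusted p 0.00802). A region whose nearest gene is Gm14279 (chr2:157496982-157497481) scored 2.34 and 1.82 with vector, and no summit of either add-back library lay in it, a fall of −2.08 (SE 0.34, adjusted p 0.00207). The start-site region of Nnat changed by −1.24 and was not called (adjusted p 0.200).

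**Figure D4:**
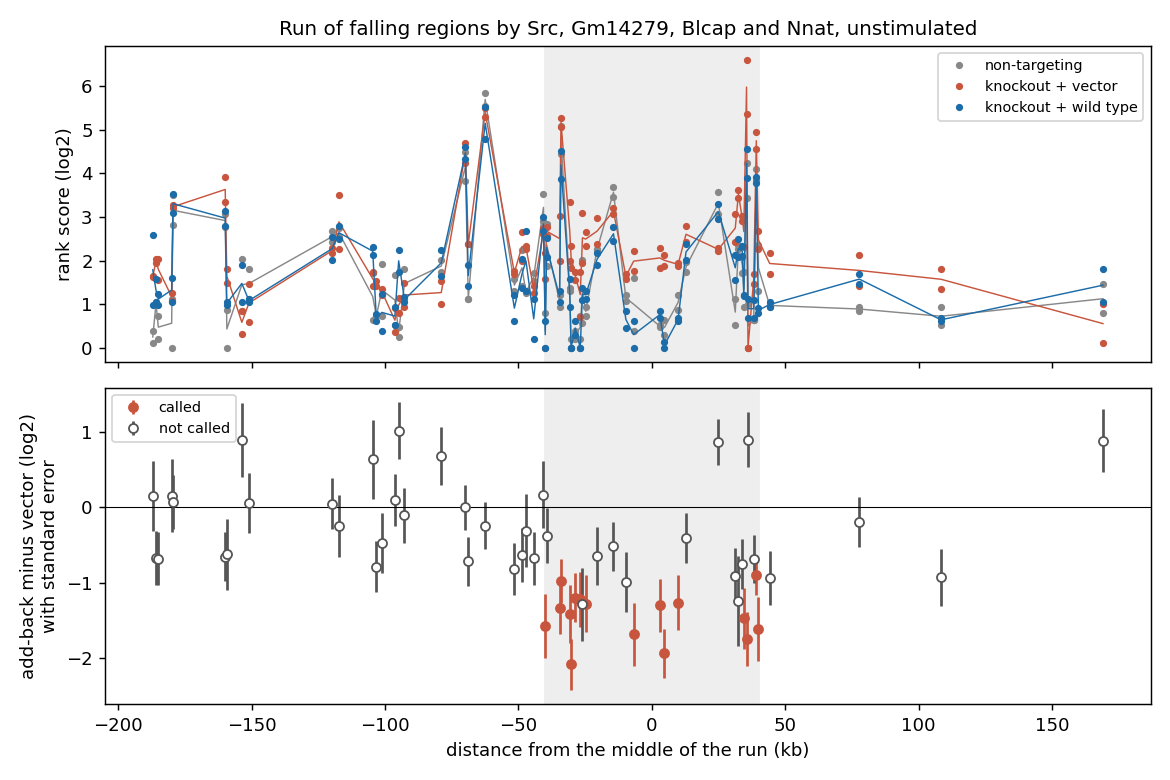
Rank scores (log2, top, points are libraries and lines are means of 2) and change with its standard error (bottom) against the distance from the middle of the run (kb), with the run shaded. The 16 filled points inside the shaded run lie below 0, and no region outside it is filled.

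Most calls stood alone: 3669 rises and 1105 falls. Runs of 2 calls numbered 291 for rises and 63 for falls, and runs of 3 numbered 32 and 8. The next largest held 4 or 5 calls. Rises ran together at Spata13, a guanine exchange factor gene (5 of 9 tested regions). They also did at Rgs3 (4 of 5), Ksr1 (4 of 9), Wdr1 (4 of 11) and Espn with Plekhg5 (4 of 11). With KCl the median changes of these runs were 0.85, 1.17, 0.71, 0.32 and 0.05. Falls ran together at Vgf and Ap1s1 (4 of 8), at Calm3 and Pnmal2 (4 of 12) and at Ptk2 (4 of 10). Another run held Cdk4 with Agap2, Marchf9 and Os9 (4 of 28). Their medians with KCl were −0.32, −0.67, 0.03 and −0.39. Vgf encodes a secreted neuropeptide precursor induced by activity. By nearest gene, Med13l and Nckap5 had the most rises, 7 of 29 and 7 of 31 regions, followed by Spata13 with 6 of 25. Csmd1 and Nav2, with 6 of 75 and 6 of 96, had shares near that of all regions inside genes. Trmt9b had 5 falls among 14 regions.

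The lists of genes described next are read against all genes of the same position: of regions within 1 kb of a gene's start or end 0.939% rose and 1.52% fell (median change −0.17), and of the other regions inside or within 100 kb of a gene 5.52% rose and 1.28% fell (median 0.17). BAF subunits were taken first. None of their 72 end regions rose and 1 fell (median −0.20), and 5 of their 208 other regions rose and 1 fell (median 0.09). The strongest end region of Smarcc1, the paralog of Smarcc2, scored 6.08 and 5.89 with vector and 5.22 and 5.66 with the add-back (change −0.54, adjusted p 0.285). That of the ATPase gene Smarca4 scored 5.81 and 6.20 against 5.60 and 5.82. Neither passed the test, nor did those of Smarcb1, Smarcd1, Smarcd3, Smarce1, Arid1a, Arid1b, Dpf1, Actl6b and Ss18l1, whose changes ran from −0.46 to 0.41. These were among 23 genes named for their strongest end region, none of which was called (limma, adjusted p 0.0812 to 0.98), with 3 at an unadjusted p under 0.05.

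At Smarca2, the other ATPase gene, 2 neighbouring regions had changes of opposite sign, of which only the fall was called. The main start-site region scored 8.32 and 8.86 with vector and 10.4 and 9.15 with the add-back and was not called (change 1.20, adjusted p 0.149). The region 750 bp upstream (chr19:26604161-26604660) fell from 4.01 and 4.09 to 1.98 and 2.24 (change −1.93, adjusted p 6.94e-04), with 4.37 and 4.65 in non-targeting neurons and 4.36 and 4.44 in the depolarized add-back libraries. Ranked as 1 interval the change was 1.28 and not called. Among the other calls of this list, a region inside Arid1a, a BAF-specific subunit gene, rose by 1.45 from 3.48 and 3.52 to 5.14 and 4.74 (adjusted p 0.00377), and a region 54997 bp from Brd7, a PBAF subunit gene, rose by 1.82 from 2.78 and 2.21 to 4.38 and 4.27. Both were called with whole intervals and with KCl.

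Early activity genes, whose transcription follows depolarization within minutes, had 1 rise and 2 falls in 205 end regions and 10 rises and 5 falls in 465 other regions (2.15% and 1.08%, median 0). Of their strongest end regions, Fos scored 4.93 and 5.24 with vector and 4.83 and 5.39 with the add-back, Junb 6.26 and 6.42 against 6.27 and 7.20, and Npas4 3.32 and 3.65 against 2.64 and 3.38, and none of these passed the test. The strongest end region of Arc scored 5.40 and 0 with vector and 5.16 and 5.07 with the add-back (adjusted p 0.0812). Away from the start, a region 5671 bp upstream of Fos (chr12:85467970-85468469) rose by 2.37, from 1.80 and 0 to 2.99 and 3.54, with 2.88 and 2.90 in non-targeting neurons (adjusted p 0.00231). It scored 3.89 and 4.05 with vector and 4.40 and 4.89 with the add-back after KCl, and was not called there or with whole intervals. A region 4748 bp from Arc, which encodes a capsid-like synaptic protein, rose by 1.97 from 1.28 and 0.58 to 2.79 and 3.03. A region 5016 bp upstream of Egr4, a zinc-finger early gene, fell by 1.80 on the log2 scale, from 4.20 and 4.15 to 2.41 and 2.35, with 3.14 and 2.97 in non-targeting neurons, and was called in all 8 other settings that kept this window.

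Late activity genes had 4 falls and no rise in 72 end regions (5.56% fell, median −0.42), 10 rises and 4 falls in 184 others. The falls included the ends of Vgf and of Nrn1, the gene of the synaptic protein neuritin. The Nrn1 region went from 3.38 and 3.05 to 1.94 and 1.21. This region and the Vgf end region with the largest fall were not called with whole intervals (limma, adjusted p 0.119 and 0.143). Nor were they called with KCl (limma, adjusted p 0.087 and 0.926). Synapse genes had 2 rises and 4 falls in 119 end regions (median −0.37) and 20 rises and 5 falls in 581 others (3.44% and 0.861%). A region inside the adhesion gene Nrxn3 rose by 1.58. Ion channel genes had no rise and 1 fall in 76 end regions (median −0.33) and 21 rises and 5 falls in 421 others. Among these, regions inside the potassium channel genes Kcnj3 and Kcnd3 rose by 1.83 and 1.27 and one inside the calcium channel gene Cacna1g by 1.81. Axon guidance genes had no call in 65 end regions and 31 rises and 4 falls in 450 others (6.89% rose). A region 63181 bp from Slit3, a secreted guidance ligand, had no summit in either vector library and rose by 1.87 to 1.69 and 2.05. A region 89785 bp from Nrp2, a semaphorin receptor gene, rose by 1.72, and it was called in all 8 other settings that kept this window.

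The labelled cell type was checked by the best end region of each marker gene. Of the 24 genes of excitatory neurons 23 were held by at least 1 of the 4 libraries, and their scores summed to 90.3 and 87.9 with vector and to 84.5 and 83.1 with the add-back. These sums did not overlap: 11 genes were lower in both add-back libraries and 4 higher. Of the other cell types, 5 of 16 oligodendrocyte genes, 6 of 15 microglial genes and 5 of 16 vascular and meningeal genes were held at an end region, and Sox10, Mog, Cx3cr1, P2ry12, Cldn5 and Pecam1 were at 0 there. Their sums were 11.8 and 11.7 with vector and 11.3 and 15.6 with the add-back for oligodendrocytes, 11.9 and 13.7 against 12.9 and 14.6 for microglia, and 7.64 and 5.74 against 9.16 and 9.73 for vascular and meningeal cells, of which the last did not overlap, with 4 genes higher in both add-back libraries and none lower. Of the astrocyte genes 16 of 18 were held, with sums of 49.4 and 51.4 with vector and 54.7 and 56.7 with the add-back, and 9 were higher in both add-back libraries and 1 lower. Over all 12889 genes with an end region, 2163 were higher and 3810 lower. The part of these markers in the results was not tested. With KCl the excitatory sums overlapped, at 94.0 and 92.6 with vector and 92.9 and 88.7 with the add-back. Those of oligodendrocyte and inhibitory neuron genes also overlapped there. Astrocyte sums with KCl did not overlap, at 50.7 and 52.3 with vector and 55.6 and 53.5 with the add-back. Nor did those of vascular and meningeal genes, at 10.6 and 10.8 against 12.3 and 10.97. Microglial sums (13.3 and 13.7 against 13.9 and 15.2) and progenitor sums (58.5 and 59.8 against 63.5 and 61.3) did not overlap. The unstimulated non-targeting libraries had astrocyte sums of 46.0 and 52.7 and excitatory sums of 82.2 and 84.7. Their vascular and meningeal sums were 8.46 and 7.66. Unstimulated progenitor sums overlapped, at 53.3 and 57.9 with vector and 56.9 and 60.9 with the add-back, with 7 genes higher and 1 lower. Unstimulated sums of inhibitory neurons also overlapped. In bulk libraries a change in the number of cells of a type and a change in the chromatin of each cell cannot be told apart.

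By single regions, excitatory neuron genes had no rise and 3 falls in 79 end regions and 11 rises and 1 fall in 276 others. A region 85130 bp from Neurod6, a neuronal bHLH factor gene (chr6:55592189-55592688), rose by 1.84 from 2.53 and 2.73 to 4.70 and 4.25, and with KCl by 1.67 (adjusted p 0.0164). A region 22333 bp from the corepressor gene Tle4 rose by 1.46. Inhibitory neuron genes had 8 rises and 1 fall in 90 other regions (8.89% rose), among them a region inside Adarb2 (1.85). Astrocyte genes had 1 rise in 37 end regions and 10 rises and 2 falls in 174 others (5.75% rose, median 0.34). Of these a region 1055 bp from the intermediate filament gene Gfap rose by 1.21, from 3.66 and 4.61 to 5.45 and 5.24, while in non-targeting neurons it scored 3.49 and 3.88. Its start-site region was not called (3.10 and 3.63 against 3.65 and 3.90).

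Progenitor genes had 5 rises and no fall in 118 other regions, such as a region 1258 bp from the Notch ligand gene Dll1 (1.90). Oligodendrocyte genes had 4 rises in 79 and vascular and meningeal genes 5 in 67, with no fall. The latter included a region inside the VEGF receptor gene Flt1 (chr5:147707429-147707928), which rose by 1.81 from 2.30 and 2.37 to 4.38 and 3.90. Microglial genes had 2 rises and 2 falls in 27. Housekeeping genes had 1 rise and 2 falls in 96 other regions (median −0.12).

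**Figure D5:**
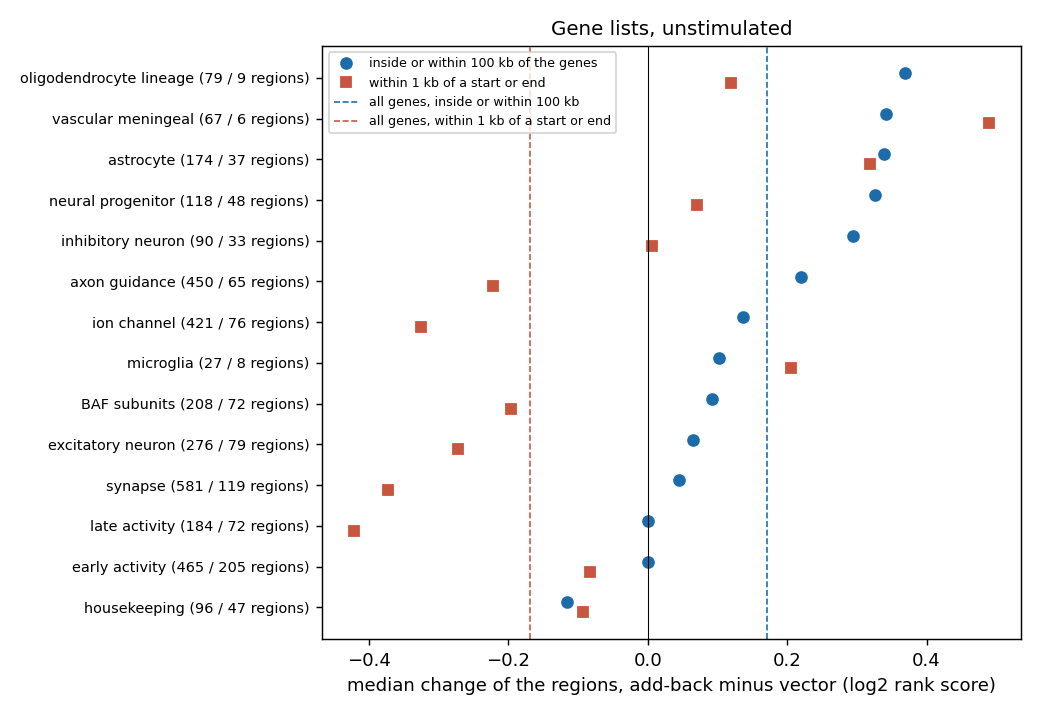
Median change of the tested regions of each gene list (x axis, log2 rank score, add-back minus vector), for regions inside or within 100 kb of the genes (circles) and within 1 kb of a start or end (squares), with dashed lines at the medians over all genes, 0.17 and −0.17. The squares of late activity (−0.42, 72 regions), synapse (−0.37, 119 regions) and ion channel genes (−0.33, 76 regions) lie left of their line. Among those right of it are the squares of vascular and meningeal (0.49, only 6 regions), astrocyte (0.32, 37 regions) and microglial genes (0.21, only 8 regions).

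Whether the add-back acted differently in resting and depolarized neurons was tested by the interaction of the 2 contrasts. Of 97810 regions 10 passed (0.0102%), 5 in each direction, and 4453 had an unadjusted p under 0.05. With windows of 1000 bp limma called 0 regions, with 3621 at an unadjusted p under 0.05, and with lists of 30000 summits 0, with 2391. In 9 of the 10, at least 1 of the 4 groups had no summit in either library, and 8 lay at gene ends. The activity gene Egr3 had the largest difference. A region at its end scored 1.89 and 1.94 with vector unstimulated and 0 and 0 with KCl, against 4.98 and 4.60 with the add-back and KCl, while the strongest region nearby scored 7.80 and 7.43 with vector and 7.23 and 8.26 with the add-back after KCl. At Gadd45b the depolarized vector libraries scored 0 and 0 in a region 434 bp from the start and 8.44 and 8.39 in the main start-site region, where the add-back libraries scored 8.86 and 8.49.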

How the data were processed

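Peak lists of the 20 libraries at DIV18 were used, on mm10. The submitters' processing notes name MACS2, Bowtie2, Trim Galore, FastQC, Picard, SAMtools and bedtools, with no versions or settings. The authors' deposited lists give for each summit a fold enrichment (a ratio to background), a −log10 p and a −log10 q. The DIV7 lists were not used. Here the autosomal summits outside the Smarcc2 window were ranked by −log10 p and cut to 233647, with ties broken at random with a fixed seed. Windows of 500 bp were centred on the top 75000 summits of each library, best first, and overlapping windows were dropped. Of 97843 regions, 97810 held by at least 4 libraries were tested. Limma 3.58.1 (R 4.3.3) fitted 10 group means over the 20 libraries, with a variance trend and Benjamini-Hochberg adjustment over all regions tested. Each group of 2 shares 1 estimate of spread with the others. Changes are differences of mean rank scores. Depth could be read only from the steps of the fold enrichment, 0.942 to 3.68 reads per base over the 20 libraries, with S586E replicate 1 unstimulated the lowest.

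The nearest of 20665 autosomal protein-coding RefSeq genes (GRCm38.p6) was given to each region. The annotation gives gene ends, not exons, so exon and intron were not told apart. Start sites came from the RefSeq promoter table (16457 genes). The comparison, its members, the 14 gene lists and the rules were chosen with earlier results of these data known. Named regions were the 10 largest rises and falls with groups that did not overlap, the largest call of each list, and the strongest end region of 26 fixed genes, of which 23 had one. Of these 23 regions none was called (limma), 3 with an unadjusted p under 0.05. Other named regions were chosen after the values were seen: the 12 smallest adjusted p, up to 3 smallest per list, the runs, and the printed promoters. A first rule, to print promoters of named genes that a called region overlaps, was met by Wdr46 and Trim9, which are not printed, since neither was called with whole intervals. Some regions that these rules name are not reported here. The closing section gives the alternatives.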

Additional observations from a re-analysis of the deposited data

Results flagged for a closer look

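In 10 regions the change with the add-back differed between unstimulated and depolarized neurons by the test of that difference. The difference (unstimulated change minus KCl change) was −5.36 at Egr3, −4.14 at Gadd45b, −4.11 at Camk1d, −3.49 at Odr4 and −3.28 at Sfpq. It was 4.83 at Nr4a1, 3.75 at Aco1, 3.51 at Cry2, 3.06 at Tbc1d12 and 2.65 at Brf1. Of these 10 unstimulated changes 4 were called in the reported fit, and none with whole intervals ranked. That concerns the unstimulated change and not the difference between states.

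The window of the Smarcc2 gene, left out of the comparisons, held 42 and 43 summits in the 2 add-back libraries, above the 22 and 20 of the vector libraries and the 19 and 19 of the non-targeting ones. The 39 and 36 summits of the depolarized vector libraries are also above the non-targeting level (23 and 23 with KCl).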

How the results depend on the processing

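The 5655 called regions became 2438 with intervals ranked, 1959 with lists of 30000 summits, 730 with only the groups compared and 8944 with the replicate block, and 809 to 1931 with 1 library left out. They were 4555 with lists of 75000 summits, 6642 with windows of 1000 bp, 5658 with no filter, 5668 with interval number as a covariate and 7476 with the background level as a covariate, a setting chosen after seeing the data. Every rise and fall of the reported fit was again called with the replicate block, while whole intervals called 1417 of the 4368 rises and 613 of the 1287 falls with the same sign. Replicate numbers are only shared here: deviations of same-numbered add-back and vector libraries correlated by 0.11 unstimulated and 0.097 with KCl, and over the 45 pairs of groups by 0.035 to 0.19, with 29 over 0.1. The median change of all regions was 0.12 with windows of 1000 bp against 0.06. The 10 differences between states became 27 with intervals ranked, 23 with only the groups compared, 0 with lists of 30000 summits (2391 at an unadjusted p under 0.05 in limma) and 0 with windows of 1000 bp (3621), 12 with the replicate block, and 9 to 26 with 1 library left out. The add-back lists were 29300.5 intervals longer than the vector lists, 28745 over autosomes outside the Smarcc2 window, 40863 at a −log10 q of at least 5, and 21071 to 37530 with 1 library left out. With intervals ranked, called changes turned sign at Cactin (−0.47), Bnip3l (−0.14), Phf3 (−0.091), Wdr46 (−0.14), Tbc1d12 (−0.29), Garem1 (0.50), Spaca6 (0.38), Smarca2 (1.28) and Brf1 (−0.085), and with windows of 1000 bp at Phf3 (−0.20). The cause was not tested.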
